A study of Mus musculus with 12 samples.

Results

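The 38 genes described here encode enzymes that use 2-oxoglutarate (alpha-ketoglutarate), oxygen and iron, and they were taken by name from a list of TET, lysine demethylase, prolyl and lysyl hydroxylase and nucleic acid demethylase genes. Of these 38 genes, 35 were the nearest gene of at least 1 measured window, out of 16092 genes with a window in the whole data set. Kdm4d, Plod2 and Alkbh1 had no window named for them. The 35 genes held 240 of the 67822 windows, of which 228 lay within 100 kb of the transcription start site (TSS) of the gene and 54, in 32 genes, lay within 1 kb of it. Windows named for Kdm6b, P4ha2 and Tet1 were all more than 1 kb from the annotated TSS. Of the 240 windows, 49 overlap the window before them, so that sums over a gene count some tags more than once.

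These enzymes couple the oxidation of 2-oxoglutarate to succinate and carbon dioxide with hydroxylation of a substrate, which in the demethylases ends in loss of a methyl group. TET proteins oxidise 5-methylcytosine in DNA, JmjC lysine demethylases act on methylated histones, EGLN enzymes and the asparaginyl hydroxylase encoded by Hif1an mark hypoxia-inducible factors (HIF), and other members act on collagen or on methylated RNA and DNA. Because 2-oxoglutarate is also an intermediate of glutamine breakdown, the family is often discussed where glutamine use by macrophages and microglia is studied, and the title of the series names glutaminolysis downstream of NLRP3.

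Acetylation of histone H3 at lysine 27 (H3K27ac), a mark of active promoters and enhancers, was measured by chromatin immunoprecipitation and sequencing (ChIP-seq) in CD11b+ microglia isolated from mouse forebrain. The 12 libraries comprised 3 H3K27ac and 3 input (sheared chromatin before precipitation) libraries from wild-type mice on a C57BL/6N background, and 3 of each from Nlrp3-/- mice, a Cias1-knockout line from Millennium Pharmaceuticals. No treatment, age or sex is given in the labels, which also do not say whether replicates were separate animals, so the p-values measure the spread between these libraries. CD11b selection can also hold other myeloid cells, and the measurements are sums over all cells of a library, so that fewer cells carrying the mark and less mark per cell cannot be told apart.

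The H3K27ac libraries held 3726550 to 5028129 tags (sequenced fragments assigned to the genome), of which 39.1% to 46.1% fell in the windows; the inputs held 3287009 to 6961590 tags, of which 8.31% to 9.32% did. At the Nlrp3 promoter, the window 52 bp upstream of the TSS held 180, 180 and 195 tags in the wild-type H3K27ac libraries and 1, 0 and 16 in the knockout libraries, and 10, 5 and 3 tags in wild-type input against 0 in each knockout input. Another Nlrp3 window, 49 bp upstream of its nearest TSS, held 138, 91 and 119 tags in wild-type and 17, 20 and 43 in knockout H3K27ac libraries. These counts go with the labelled genotypes. Promoter windows of 9 of 10 microglial marker genes summed to 257.8 to 331 CPM (tags per 1000000 tags) in the wild-type libraries and 284.1 to 295.9 CPM in the knockout libraries. The summed markers of border macrophages reached 3.12 to 14.5 CPM and 8.72 to 15.5 CPM over 3 windows, those of neurons at most 0.951 CPM over 1 window, and those of monocytes and neutrophils had no promoter window. Oligodendrocyte markers summed to 15.2 to 18.3 CPM in wild type and 17.8 to 21.99 CPM in knockout, and endothelial and mural markers to 12.2 to 25.4 CPM and 19.7 to 22.4 CPM, each over 5 windows, beside 14 windows for microglia. The part of other cells in the results was not tested. Correlations of window levels (log2) between H3K27ac libraries were 0.706 to 0.784 within a genotype and 0.658 to 0.799 between genotypes, so libraries of a genotype did not stand apart from the other genotype. Wild-type replicate 1 held no tag at the promoter of the Y-linked Uty, where the other H3K27ac libraries held 48 to 93, and estimates are given without it after the X-linked genes.

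On the scale of library totals, most promoters of the family carried H3K27ac in microglia of both genotypes. With library totals as the scale and no filter on low counts, 30 of the 32 promoters were above input in wild type (edgeR quasi-likelihood test, adjusted p under 0.05), against 74.4% of 11585 promoters. In the knockout libraries 30 of 32 were above input, against 76.9% of 11586 promoters. With a filter on low counts, 27 of 27 and 28 of 28 promoters were called (against 98.9% and 99.4% of all), but that filter passes promoters through their H3K27ac tags. With TMM scaling in place of library totals, 8 of 28 promoters tested in wild type were called above input, against 1160 of 8936 over all genes. In knockout 7 of 30 were called, against 1309 of 9528. Egln3 did not pass in either genotype, Kdm5b did not pass in wild type and Phf2 did not pass in knockout; at Kdm5b the genotypes did not differ past the threshold, and the Phf2 promoter was removed by the filter on low counts. The median promoter level of the 32 genes, per 1 kb window, was 9.41 CPM in wild type, against 5.71 CPM over all 11591 genes with a promoter window, and 21 of the 32 lay above that median.

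**Figure D1:**
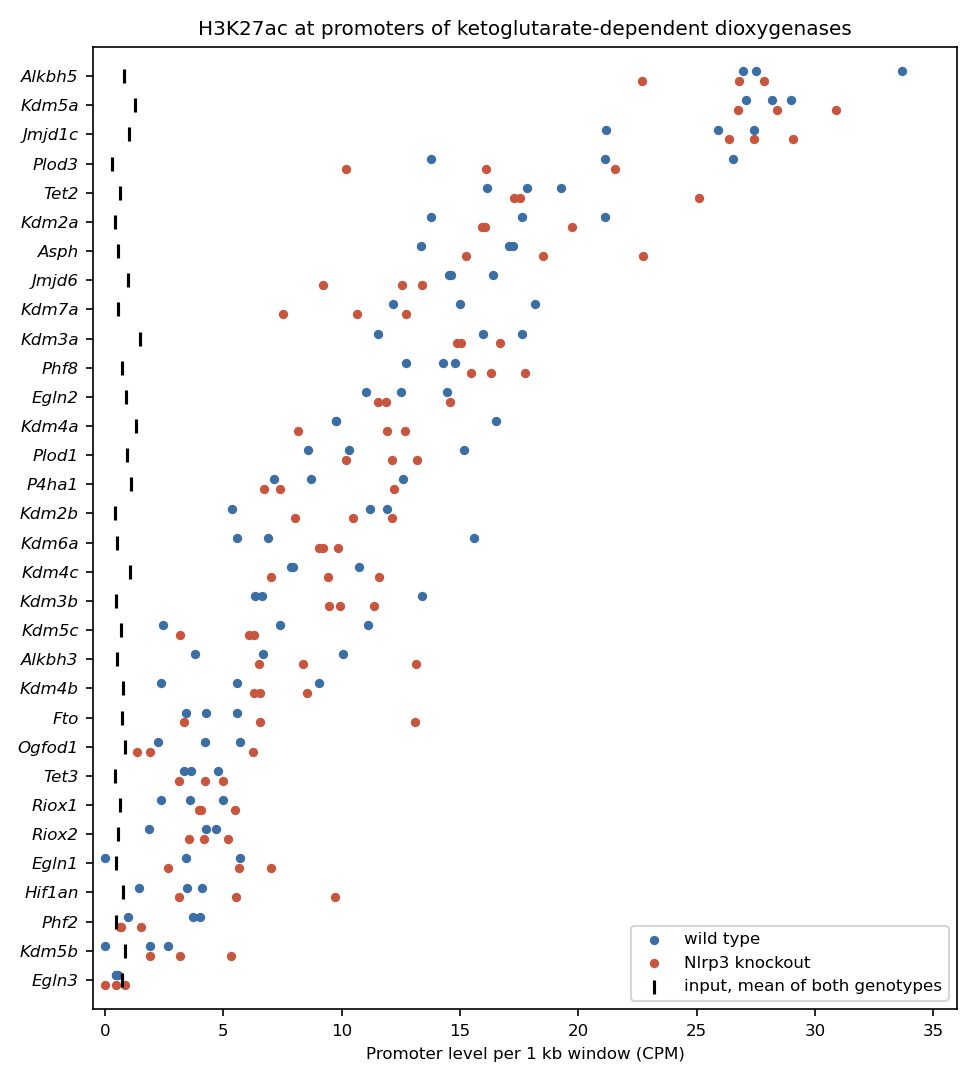
H3K27ac level per 1 kb promoter window (CPM, linear axis) in each of the 6 H3K27ac libraries for the 32 genes with a promoter window, ordered by the wild-type mean; each point is 1 library and the black ticks are the mean input level. Alkbh5, Kdm5a and Jmjd1c lie highest, Egln3 lies at the input level, and the points of neighbouring genes overlap throughout the order.

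The m6A RNA demethylase gene Alkbh5 had the highest promoter level, 29.4 CPM ± 3.74 (SD, n = 3) in wild type and 25.8 CPM ± 2.72 (SD, n = 3) in knockout. Next came Kdm5a, an H3K4 demethylase, at 28.1 ± 0.962 and 28.7 ± 2.09 CPM, and Jmjd1c, a KDM3-class protein, at 24.8 ± 3.27 and 27.6 ± 1.35 CPM (SD, n = 3 each). These lay at percentiles 97.4, 97.1 and 95.5 of all promoter levels in wild type. The lysyl hydroxylase gene Plod3 followed at 20.5 ± 6.40 CPM and Tet2 at 17.7 ± 1.58 CPM in wild type (SD, n = 3 each). No pair of neighbours in the order of 32 was separated in the wild-type libraries, although some genes a few ranks apart were, such as Jmjd1c (21.2 to 27.4 CPM) and Tet2 (16.1 to 19.3 CPM). At the low end were Phf2 at 2.89 ± 1.69 CPM, Kdm5b at 1.52 ± 1.36 CPM and Egln3 at 0.483 ± 0.0417 CPM in wild type (SD, n = 3 each), the last against an input mean of 0.833 CPM. The HIF prolyl hydroxylase genes thus ran from Egln2 at 12.6 CPM through Egln1 at 3.05 CPM to Egln3, with Hif1an at 3.00 CPM (wild-type means).

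The strongest windows of the family were not all at promoters. The highest was in intron 1 of Kdm6b (JMJD3, an H3K27 demethylase induced in activated macrophages), at chr11:69409958-69410958 (mm10), 3217 bp downstream of the TSS, with 59.3 ± 3.19 CPM in wild type and 53.4 ± 7.68 CPM in knockout (SD, n = 3 each). That window lay at percentile 99.9 of all windows in wild type. It held 217, 264 and 259 tags in wild type and 240, 255 and 272 in knockout, against 1 to 9 in the 6 inputs. A neighbouring Kdm6b window that overlaps it, 2820 bp downstream of the TSS, had 52.9 ± 4.02 CPM in wild type (SD, n = 3). The strongest window of another gene was in intron 1 of Jmjd1c, at chr10:67186588-67187588, 1338 bp downstream of its internal TSS, with 52.3 ± 15.6 and 53.9 ± 12.5 CPM (SD, n = 3 each). Phf2, weak at its promoter, had a window of 18.5 ± 3.17 CPM in wild type (SD, n = 3) that lay 7828 bp upstream of its TSS. That window covers the annotated end of a transcript other than that of Phf2. It held 75, 89 and 65 of the 121, 125 and 112 wild-type tags summed for Phf2 within 100 kb. Of the 240 windows, 181 (75.4%) were in the authors' site lists of both genotypes, 38 (15.8%) in the wild-type list only and 21 (8.75%) in the knockout list only, close to the shares of all windows (75.5%, 16.3% and 8.18%).

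Sequences just upstream of a TSS are shown for the genes with the highest and lowest mean promoter level (Alkbh5 and Egln3), for both Jmjd1c promoters, and for Phf8, Kdm6a and Hif1an, whose genotype values are described below. Each is the 150 bases before the RefSeq start (GRCm38.p6), 5′ to 3′ on the strand of the gene. Capitals mark matches, on either strand, to 5 motifs, which may overlap. ACGTG is the core of the hypoxia response element and of E-box variants. The ETS family motif searched was CCGGAAG. For the GC box of SP and KLF factors it was GGGCGG. For the cyclic AMP response element (CRE) it was TGACGTC. The CCAAT box was searched as its own letters. They come from chr11:60537533-60537682 (plus strand) for Alkbh5, chr10:67126938-67127087 (plus) and chr10:67185600-67185749 (plus) for Jmjd1c, chrX:151520522-151520671 (plus) for Phf8, chrX:18162425-18162574 (plus) for Kdm6a, chr19:44562704-44562853 (plus) for Hif1an and chr12:54203875-54204024 (minus) for Egln3.
Alkbh5: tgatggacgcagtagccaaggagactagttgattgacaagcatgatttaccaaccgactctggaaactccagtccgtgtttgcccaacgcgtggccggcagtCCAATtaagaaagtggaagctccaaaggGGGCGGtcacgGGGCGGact
Jmjd1c, upstream promoter: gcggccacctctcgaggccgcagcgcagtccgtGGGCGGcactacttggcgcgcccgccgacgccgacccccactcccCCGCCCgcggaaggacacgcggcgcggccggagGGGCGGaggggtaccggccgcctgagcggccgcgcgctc
Jmjd1c, internal promoter: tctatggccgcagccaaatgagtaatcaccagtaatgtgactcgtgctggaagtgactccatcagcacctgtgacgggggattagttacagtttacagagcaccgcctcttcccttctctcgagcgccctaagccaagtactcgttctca
Phf8: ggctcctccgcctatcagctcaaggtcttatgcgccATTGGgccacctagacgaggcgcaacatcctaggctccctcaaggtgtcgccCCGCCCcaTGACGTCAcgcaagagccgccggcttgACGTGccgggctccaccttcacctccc
Kdm6a: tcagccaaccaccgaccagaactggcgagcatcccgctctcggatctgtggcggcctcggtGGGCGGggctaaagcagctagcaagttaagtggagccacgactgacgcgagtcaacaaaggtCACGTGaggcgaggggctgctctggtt
Hif1an: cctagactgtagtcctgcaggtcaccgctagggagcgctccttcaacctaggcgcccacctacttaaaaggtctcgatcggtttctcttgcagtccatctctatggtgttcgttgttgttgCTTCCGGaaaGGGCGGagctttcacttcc
Egln3: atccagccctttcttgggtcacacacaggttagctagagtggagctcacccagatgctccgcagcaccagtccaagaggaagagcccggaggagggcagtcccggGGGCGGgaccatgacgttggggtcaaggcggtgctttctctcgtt

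The upstream Jmjd1c promoter holds 3 GC boxes in these bases and the internal one none of the 5 motifs, although the window at the internal promoter, with 41.3 ± 2.63 CPM in wild type (SD, n = 3), was the highest promoter window of the family. Kdm6a holds CACGTG, a palindrome that matches ACGTG, the core of hypoxia response elements and E-box variants, on both strands. Phf8 holds TGACGTCA, a palindrome that likewise matches the CRE on both strands. Alkbh5 and Egln3 both carry a GC box. RefSeq promoter entries of 300 bases (250 before to 50 after the TSS) matched 31 of the 38 genes, with 39 promoters. Of these 39, 26 (66.7%) held a GC box, against 35.7% of all 32851 promoters and 62.9% of the 11578 promoters of genes with a promoter window. The ACGTG core was in 14 (35.9%, against 19.6% and 25.4%), the ETS motif in 9 (23.1%, against 8.9% and 17.1%), the CRE in 3 (7.7%, against 3.2% and 5.5%) and the CCAAT box in 12 (30.8%, against 37.4% and 37.8%). The median observed to expected CpG ratio was 0.845 in the 39 promoters, 0.384 in all promoters and 0.752 in those of genes with a promoter window. These matches describe the sequence only. Across the 27 members with both values, the wild-type promoter level and the CpG ratio had r = 0.31 and rho = 0.38, as a description over genes that share libraries and base composition.

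The main comparison asked whether H3K27ac at these genes differed between Nlrp3-/- and wild-type microglia. Summed over windows within 100 kb, 33 of the 38 genes had enough tags to be tested (Tet1 and Egln3 were removed by the filter on low counts). None was called at an adjusted p under 0.05 (edgeR quasi-likelihood test), against 0.206% of 12148 genes tested, and adjusted p-values ran from 0.751 to 1.00. At unadjusted p under 0.05 there were 2 genes, Hif1an and Jmjd1c, of 33, against 5.77% of all genes. Estimates were positive (higher in knockout) for 20 genes and negative for 13, where 50.2% of all genes were positive, with a median log2 fold change of 0.04 against 0.00133 over all genes. The 95% interval left out a 2-fold higher level for 25 of the 33 genes and a 2-fold lower level for 29, and 20 estimates lay within 0.25 of 0 on the log2 scale. Libraries of the genotypes did not overlap for 6 of 33 genes, against 11.3% of all genes: Hif1an, Jmjd1c, Phf8 and Fto with higher and Kdm6b and Jmjd6 with lower levels in the knockout. Both Jmjd6 windows were in the wild-type site list only.

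**Figure D2:**
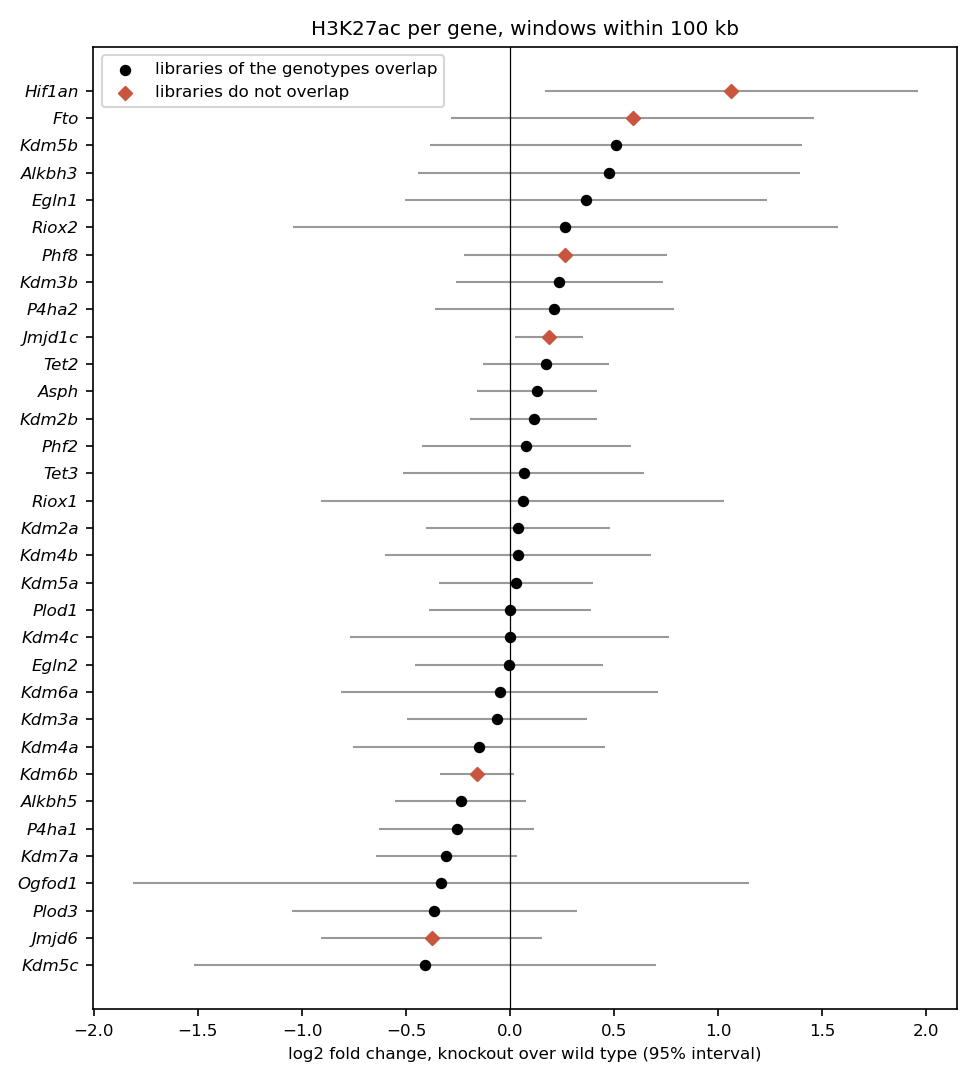
log2 fold change of summed H3K27ac within 100 kb of the TSS, knockout over wild type, for the 33 genes tested, with 95% intervals; diamonds mark the 6 genes whose libraries of the genotypes do not overlap. Intervals of Hif1an and Jmjd1c alone lie above 0 before adjustment, and none passed the adjusted threshold.

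At promoters alone, 0 of 30 genes tested were called (adjusted p under 0.05), against 0.0109% of 9139 genes, and 1 (Hif1an) had an unadjusted p under 0.05, against 4.76%. Estimates were positive for 21 of the 30, against 50% of all genes, with a median of 0.08. Libraries did not overlap for 2, Phf8 (higher) and Jmjd6 (lower), against 10.2% of all genes. For single windows, 2 of them beyond 100 kb, 0 of 154 tested were called, against 0.0595% of 40370 windows, 80 had a positive estimate, against 50.4%, and 7 had an unadjusted p under 0.05, against 4.69%. Of those 154 windows, 22 did not overlap between genotypes (15 higher and 7 lower in knockout), against 10.9% of all windows. Some of these 22 lie over each other, so they are not all separate counts. Of the 7 windows, 5 were named for Jmjd1c, 1 for Plod1 and 1 for P4ha1.

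Among the TET genes, Tet2, the family member most often mutated in myeloid malignancy, held 19 windows. Its summed levels within 100 kb were 90.7, 114.6 and 97.2 CPM in wild type and 94.5, 126.5 and 120.1 CPM in knockout. The ranges overlapped, with an estimate of 0.17 on the log2 scale (SE 0.15) and an adjusted p of 0.961 by edgeR. The window over its main promoter, 46 bp downstream of the TSS, held 77, 94 and 86 tags in wild type and 113, 151 and 111 in knockout (log2 fold change 0.32, SE 0.24, adjusted p = 0.998), and did not overlap. Of its 12 tested windows, 1 of them beyond 100 kb, 7 had higher estimates and 5 lower. Tet3 showed 32.0, 21.9 and 17.7 CPM in wild type and 22.1, 23.2 and 29.4 CPM in knockout (log2 fold change 0.06, SE 0.28). Tet1 held only 2 windows with 0 to 21 tags per H3K27ac library, 0 in wild-type replicate 3, and was not tested.

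Jmjd1c, a large KDM3-class nuclear protein with a JmjC domain, carried the most windows of the family, 27 in all. Its summed levels were 389, 386.5 and 412 CPM in wild type and 432, 453 and 466 CPM in knockout, with means of 396 ± 14.2 and 451 ± 16.98 CPM (SD, n = 3 each). All 3 knockout libraries lay above all 3 wild-type libraries. The log2 fold change was 0.19 (SE 0.08, 95% interval 0.02 to 0.35, edgeR adjusted p = 0.802), and did not pass the threshold. Of 25 tested windows, 16 had higher and 9 lower estimates in knockout, and 7 did not overlap, all higher in knockout, where 10.9% of all windows did not overlap in either direction. Among these 7, the windows 11536 and 11283 bp upstream lie over each other, so they are not separate counts.

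The 5 Jmjd1c windows with an unadjusted p under 0.05 fell in 3 places. Upstream of the first TSS, the intergenic window at chr10:67113014-67114014, 13744 bp before the TSS, held 34, 28 and 49 tags in wild type and 62, 132 and 86 in knockout, with 3 to 6 in the inputs. This window was in the authors' knockout site list only, so it entered through the group where it was higher. Its log2 fold change was 1.11 (SE 0.34, adjusted p = 0.643), the smallest adjusted p of any window of the family. The window 13216 bp upstream, which overlaps it, had an estimate of 0.64 (SE 0.27), with knockout replicate 1 among the wild-type levels. The window 11536 bp upstream held 47, 50 and 36 against 93, 105 and 81 tags (0.84, SE 0.30), while that 11995 bp upstream overlapped between genotypes (0.18, SE 0.29). At the internal promoter, 54 bp before its TSS, the window held 154, 168 and 193 tags in wild type and 236, 331 and 239 in knockout (0.42, SE 0.19, adjusted p = 0.998). In exon 10, 44126 bp downstream of that TSS, a weak window held 8, 6 and 7 tags against 30, 33 and 22 (1.77, SE 0.65, adjusted p = 0.963). By contrast, the windows at the upstream promoter had estimates of -0.15 (SE 0.31) and -0.41 (SE 0.32), and the strong intron window 1338 bp past the internal TSS one of 0.04 (SE 0.21). Over its 3 promoter windows together the estimate was 0.15 (SE 0.16, adjusted p = 1.00).

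**Figure D3:**
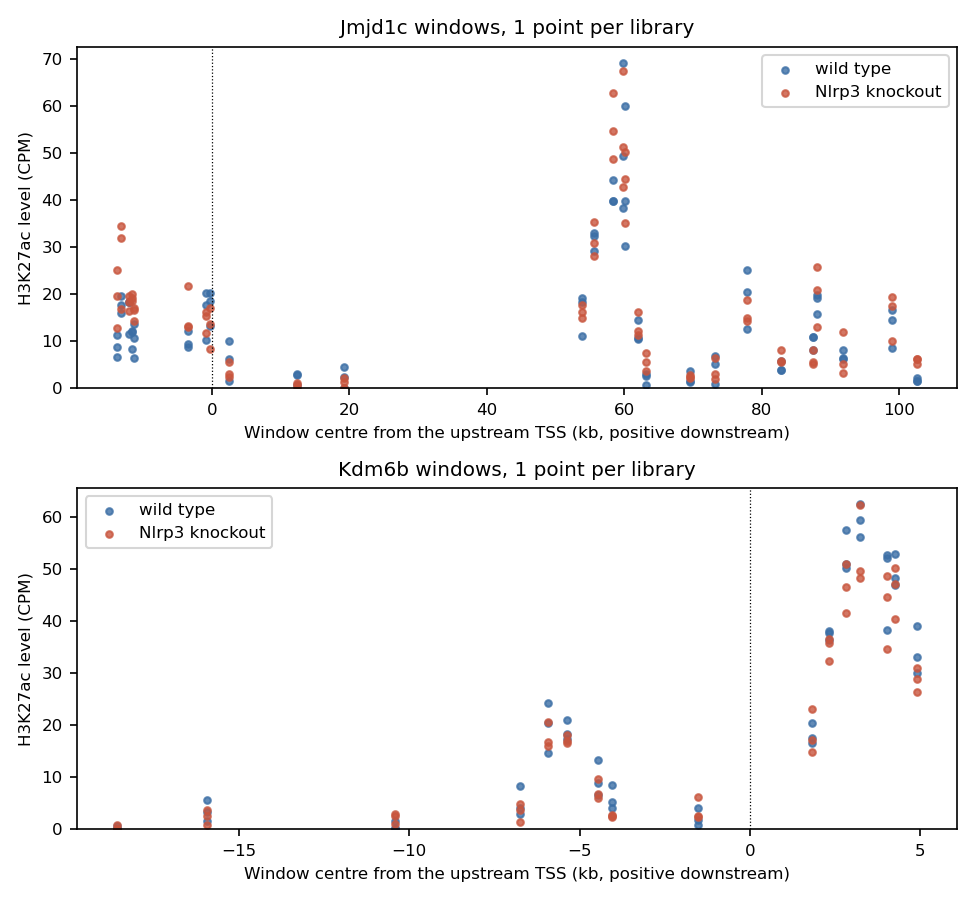
H3K27ac level (CPM, linear axis) in each window of Jmjd1c (top) and Kdm6b (bottom), by distance of the window centre from the upstream annotated TSS in kb; each point is 1 of 6 libraries. All knockout points lie above all wild-type points at 7 Jmjd1c windows, among them those 13.7, 11.5 and 11.3 kb upstream and the internal promoter near 58.4 kb. They do not at the 2 windows between 13.7 and 11.5 kb upstream. At Kdm6b the genotypes overlap in 13 of 14 tested windows.

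The other KDM3 genes, which remove methyl groups from H3K9, did not separate. Kdm3a showed 46.2, 35.7 and 52.9 CPM in wild type and 41.9, 41.9 and 45.5 CPM in knockout (log2 fold change -0.06, SE 0.21). Kdm3b showed 25.2, 43.3 and 27.7 CPM in wild type against 38.1, 36.1 and 39.1 CPM in knockout (0.24, SE 0.24).

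Kdm6b, which with Kdm6a removes methyl groups from H3K27, had summed levels of 375, 370.1 and 348.5 CPM in wild type and 331, 312 and 337 CPM in knockout. The means were 365 ± 14.2 and 327 ± 13.1 CPM (SD, n = 3 each) and the libraries did not overlap. The log2 fold change was -0.16 (SE 0.09, 95% interval -0.34 to 0.02), with an edgeR adjusted p of 0.9015. Of its 14 tested windows, 12 had lower and 2 higher estimates in knockout; none had an unadjusted p under 0.05. Many of these windows overlap each other, so they share tags. The window without overlap between genotypes was 4043 bp upstream of the TSS, with 20, 17 and 37 tags in wild type and 11, 13 and 12 in knockout (-1.24, SE 0.60, adjusted p = 0.998). Kdm6b and Jmjd1c, which held the strongest windows of the family, had estimates of opposite sign, and neither was called.

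Of the KDM2, KDM7 and PHF group, which act on H3K36, H3K9 or H4K20 methylation, 4 genes had positive estimates and 1 a negative one. Kdm7a had the most negative, with 74.8, 95.1 and 99.4 CPM in wild type and 64.1, 84.3 and 69.5 CPM in knockout (log2 fold change -0.31, SE 0.17, adjusted p = 0.897). At its promoter the estimate was -0.55 (SE 0.28, 95% interval -1.13 to 0.02), the most negative of the 30 promoters tested. Kdm2b, a CpG-island-binding polycomb partner with 20 windows, showed 119.5, 120.3 and 81.3 CPM against 118.1, 112.1 and 116.7 CPM (0.11, SE 0.15). Kdm2a showed 47.0, 34.5 and 40.9 CPM against 36.9, 47.2 and 41.4 CPM (0.04, SE 0.22). Both pairs of ranges overlapped. Phf2 summed to 28.9 ± 3.09 and 30.4 ± 3.29 CPM (SD, n = 3 each), with an estimate of 0.08 (SE 0.25). Most of its tags lay in the window 7828 bp upstream, over the end of another transcript.

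The KDM4 genes, H3K9 and H3K36 demethylases, and the KDM5 genes, which act on H3K4, gave estimates between -0.41 (Kdm5c) and 0.51 (Kdm5b). Kdm5a was the most tightly measured of them, with 53.3, 56.4 and 59.0 CPM in wild type and 61.4, 53.7 and 56.8 CPM in knockout (log2 fold change 0.03, SE 0.18, 95% interval -0.34 to 0.40). Kdm5b, weak at its promoter, had 23, 33 and 25 tags in wild type and 31, 48 and 54 in knockout, against 8 to 15 in the inputs, and an estimate of 0.51 (SE 0.44). At its promoter the estimate was 1.20 (SE 0.91, adjusted p = 1.00), from levels of 2.64, 1.90 and 0 CPM in wild type and 1.88, 5.31 and 3.17 CPM in knockout, which overlapped. Kdm4a, Kdm4b and Kdm4c had estimates of -0.15 (SE 0.30), 0.04 (SE 0.31) and -0.00249 (SE 0.37). The RefSeq promoter of Kdm4d, which had no window of its own, lies in a window named for Cwc15 that held 23, 11 and 68 tags in wild type and 33, 30 and 20 in knockout (-0.50, SE 0.52).

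The X-linked members are 3: Kdm5c and Kdm6a, which are known to be expressed from both X chromosomes of females, and Phf8. Kdm6a, an H3K27 demethylase, held 59, 29 and 25 promoter tags in wild type and 44, 52 and 40 in knockout. Wild-type replicate 1, the library without Uty tags, had the highest promoter level, 15.6 CPM, which is 1.92 times the mean of the other 5 libraries. Kdm5c held 42, 31 and 11 tags in wild type and 30, 32 and 14 in knockout, and its level in that library was 2.19 times the mean of the other 5. For Phf8, an H3K9 and H4K20 demethylase, the ratio was 0.967. The share of tags on the X chromosome relative to autosomes was 1.34% in that library and 1.18% to 1.22% in the other H3K27ac libraries. In the wild-type input numbered 1 it was 1.03%, against 0.796% to 0.860% in the other inputs.

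**Figure D4:**
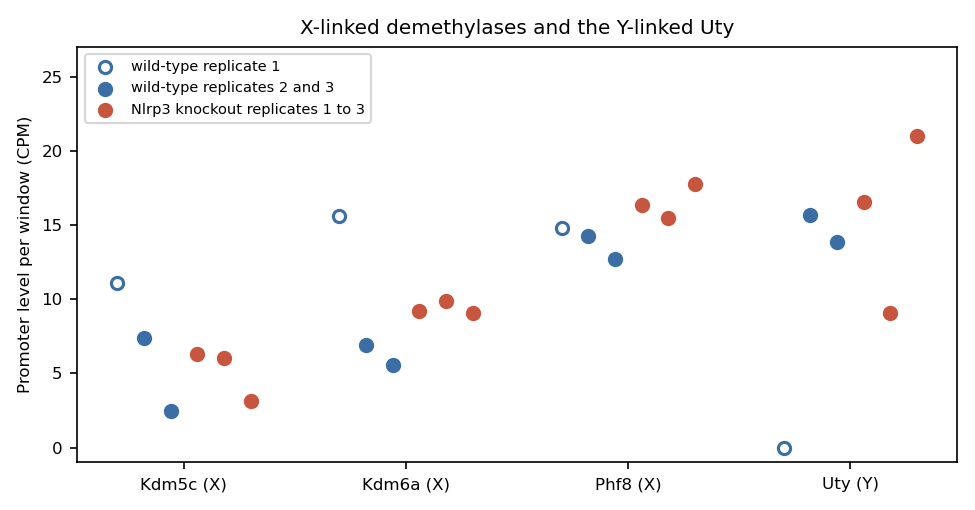
Promoter H3K27ac level per window (CPM, linear axis) of the X-linked Kdm5c, Kdm6a and Phf8 and of the Y-linked Uty; each point is 1 library, and the open circle is wild-type replicate 1. That library has no Uty tag and the highest Kdm5c and Kdm6a levels, while at Phf8 it lies just above the other wild-type libraries and below the knockout libraries.

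The genotype estimates of Kdm6a and Kdm5c depended on that library. Summed within 100 kb, Kdm6a showed 28.3, 11.2 and 8.85 CPM in wild type and 18.1, 14.1 and 14.2 CPM in knockout, with a log2 fold change of -0.05 (SE 0.37), which became 0.63 (SE 0.40, edgeR adjusted p = 0.868) without wild-type replicate 1. Kdm5c went from -0.41 (SE 0.54) to 0.07 (SE 0.65). Phf8 showed 29.4, 29.2 and 25.9 CPM in wild type and 33.3, 31.6 and 36.6 CPM in knockout, without overlap. Its log2 fold change was 0.27 (SE 0.24, adjusted p = 0.962) and 0.29 (SE 0.28) without that library. The Y-linked Kdm5d had no window. Among autosomal genes, leaving out that library turned the estimates of Kdm5a (0.03 to -0.0114), Kdm4b (0.04 to -0.14) and Riox2 (0.27 to -0.05). It moved those of Kdm3b from 0.24 to 0.09, Tet2 from 0.17 to 0.10, Asph from 0.13 to 0.07, Kdm4a from -0.15 to -0.29, Kdm2a from 0.04 to 0.15, Tet3 from 0.06 to 0.33, Phf2 from 0.08 to 0.14 and Egln2 from -0.00673 to -0.11. None of these members was called with or without it, while the calls over all genes went from 25 to 8.

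Among the HIF hydroxylases, Hif1an had the largest estimate of the family for sums within 100 kb. Hif1an, at chromosome 19, encodes the asparaginyl hydroxylase that blocks HIF from binding its co-activators. Summed within 100 kb, it held 32, 35 and 13 tags in wild type and 93, 44 and 58 in knockout, with 9 to 27 in the inputs. Scaled for depth these were 8.31, 8.32 and 2.95 CPM against 19.4, 8.37 and 13.1 CPM, so knockout replicate 2 lay just above wild-type replicates 1 and 2. The means were 6.53 ± 3.10 and 13.6 ± 5.51 CPM (SD, n = 3 each) and the log2 fold change was 1.06 (SE 0.44, 95% interval 0.17 to 1.96, edgeR adjusted p = 0.751). Nearly all of this signal was in 2 overlapping promoter windows, in which the per-window levels overlapped between genotypes (4.095, 3.45 and 1.45 CPM against 9.73, 3.13 and 5.54 CPM; 1.04, SE 0.47, adjusted p = 1.00). Of these windows, the one 264 bp downstream of the TSS was in the knockout site list only. Across the alternatives and left-out libraries tried, the Hif1an estimate within 100 kb ranged from 0.71 to 1.32 and the adjusted p from 0.362 to 0.994.

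The prolyl hydroxylase genes gave no separation. Egln1 (PHD2), the main oxygen sensor of the HIF pathway, held 21, 56 and 42 tags in wild type and 44, 39 and 89 in knockout (log2 fold change 0.36, SE 0.42). Egln2 (PHD1), the most acetylated of them, showed 33.3, 44.0 and 40.0 CPM against 35.6, 45.3 and 35.8 CPM (-0.00673, SE 0.22, 95% interval -0.46 to 0.45). Egln3 (PHD3), itself a HIF target in many cells, held 8 to 18 tags per H3K27ac library over its 6 windows, no more than the 10 to 25 of the inputs, and was not tested.

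Collagen hydroxylase genes, whose products act on procollagen in the endoplasmic reticulum, also overlapped between genotypes in their sums within 100 kb. P4ha1 showed 57.9, 65.4 and 82.0 CPM in wild type and 60.6, 50.8 and 60.6 CPM in knockout (log2 fold change -0.26, SE 0.18, adjusted p = 0.931). Its strongest window, in intron 1, 11788 bp downstream of the TSS, held 67, 74 and 141 against 77, 76 and 61 tags (-0.60, SE 0.29, adjusted p = 0.998). Scaled for depth, the levels in that window did not overlap between genotypes. P4ha1 was also the gene of the family with an unadjusted p under 0.05 in the input libraries. Its input estimate was negative as well (-0.49, SE 0.22, edgeR adjusted p = 0.898). Plod1 showed 53.0, 53.3 and 70.2 CPM against 57.3, 51.0 and 68.5 CPM (0.00051, SE 0.19). A weak Plod1 window 1548 bp upstream held 18, 14 and 16 against 42, 35 and 39 tags, without overlap (1.05, SE 0.48, adjusted p = 0.998). Plod3 had an estimate of -0.36 (SE 0.33) and P4ha2 one of 0.21 (SE 0.28).

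Of the RNA and DNA demethylase genes, Fto had the more positive and Alkbh5 the negative estimate; both proteins remove methyl groups from RNA. Alkbh5 showed 88.3, 119.9 and 99.0 CPM in wild type and 95.6, 90.0 and 74.9 CPM in knockout (log2 fold change -0.24, SE 0.15, 95% interval -0.55 to 0.08, adjusted p = 0.924). Fto held 29, 32 and 25 tags in wild type and 38, 81 and 35 in knockout (0.59, SE 0.43, adjusted p = 0.931). Its knockout mean rested on replicate 2, and the estimate was 0.19 without it and 0.15 when overlapping windows were dropped. Alkbh3, a repair enzyme for alkylated DNA and RNA, had 0.48 (SE 0.45). Alkbh1 had no window of its own; its RefSeq promoter lies in a window named for Slirp with 28, 13 and 35 tags in wild type and 42, 55 and 31 in knockout (0.52, SE 0.45).

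Among the remaining protein hydroxylases, Jmjd6, a lysyl hydroxylase of splicing factors, showed 28.6, 32.8 and 29.7 CPM in wild type and 26.7, 18.4 and 25.1 CPM in knockout. Both of its windows were in the authors' wild-type site list only, so they entered through the group where levels were higher. The libraries did not overlap, with a log2 fold change of -0.38 (SE 0.26, 95% interval -0.91 to 0.15, edgeR adjusted p = 0.931). Its promoter faces that of Mettl23, and the window named for Mettl23 held 77, 66 and 74 against 68, 60 and 51 tags (-0.50, SE 0.30), so the signal cannot be given to 1 of the 2 genes. The same holds for Plod3 with Znhit1, Tet3 with B230319C09Rik, Kdm5a with Ccdc77, Fto with Rpgrip1l and Ogfod1 with Nudt21, whose promoters share a window. Asph, an aspartyl hydroxylase of EGF-like domains with 18 windows, showed 106.8, 114.4 and 127.1 CPM against 125.3, 106.7 and 149.1 CPM (0.13, SE 0.14). Riox1 and Riox2, ribosomal oxygenases, and Ogfod1, which hydroxylates a ribosomal protein, had estimates of 0.06 (SE 0.47), 0.27 (SE 0.64) and -0.33 (SE 0.72), with the widest errors of the family at Riox2 and Ogfod1.

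Related gene lists gave 0 calls in either direction as well (edgeR, per gene within 100 kb), against 0.206% of all genes, and their counts at unadjusted p under 0.05 stand beside 5.77% of all genes. Of 18 other 2-oxoglutarate dioxygenase genes tested, 1 had an unadjusted p under 0.05 (Kdm8, log2 fold change -0.80, SE 0.37, adjusted p = 0.826). Of 31 genes that supply 2-oxoglutarate or its inhibitory metabolites, 2 did, the first being Psat1, which makes 2-oxoglutarate during serine synthesis (-0.88, SE 0.33, adjusted p = 0.644). Of 20 HIF pathway genes 1 did (Eloc, a subunit of the VHL ubiquitin ligase, 0.69, SE 0.23, adjusted p = 0.508). Of 21 histone and DNA methyltransferase genes, whose products oppose these demethylases, 3 did (first Nsd1, -0.54, SE 0.19, adjusted p = 0.566). Of 13 flavin-dependent demethylase and m6A genes 1 did (Kdm1b, -1.52, SE 0.46, adjusted p = 0.355). The medians of the lists ran from -0.09 to 0.08, beside 0.00133 over all genes. In the input libraries, 0 of 24 members tested were called, against 0.2% of 6511 genes, and 1 had an unadjusted p under 0.05, against 5.28%.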

How the data were processed

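H3K27ac and input ChIP-seq tags of 12 libraries were analysed. The deposited counts are whole tags per 1000 bp window, annotated to the nearest gene on mm10; HOMER and DESeq2 are named per the submitters' processing notes, and the aligner is not given in the sources used here. Library totals were read per the file headers. Tags were summed per gene over windows within 100 kb of the TSS, and over those within 1 kb (promoter). Genotypes were compared with edgeR 4.0.16 in R 4.3.3 (filterByExpr, TMM, quasi-likelihood test, Benjamini-Hochberg adjustment over all genes or windows, threshold 0.05); H3K27ac against input used library totals of all tags. CPM are tags per 1000000 tags after that scaling, and SE is the log2 fold change over the root of F. The fit was tested on simulated data of 12047 genes: 49 of 100 genes changed 2-fold and 92 of 100 changed 4-fold were recovered, with 4 unchanged genes called. The changed genes were drawn from those with more tags, so this recovery does not cover members with few tags, such as Riox2, Ogfod1 and Kdm5c. DESeq2 1.42.0 and other settings were alternatives. Members, lists and motifs were chosen with earlier results of these data known. Named genes were those with the smallest p, the highest and lowest promoter levels and the X-linked members; Kdm6b, Jmjd6 and Kdm7a and the other members were added afterwards to cover the family. The table lists sites from separate wild-type and knockout lists. Promoter sequences are RefSeq's (GRCm38.p6).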

Additional observations from a re-analysis of the deposited data

Results flagged for a closer look

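Windows beyond 100 kb of a TSS enter no sum per gene. In 2 of the 12 such windows of the family, all 6 H3K27ac libraries lay above all 6 inputs, against 34.4% of 4319 such windows of all genes. These 2 are the windows beyond 100 kb among the 154 single windows tested. One was named for Tet2, 115619 bp upstream of its TSS, with 2.191 CPM (of all tags) in wild type and 2.12 in knockout H3K27ac against 0.618 and 0.392 in input. The other was named for Asph, 130851 bp downstream, with 5.754 and 4.936 CPM against 0.854 and 0.444. Their genotype estimates were -0.05 and -0.23 on the log2 scale, not called (edgeR adjusted p = 0.999 and 0.998). Just inside the 100 kb limit, the Tet2 window 82463 bp upstream held 0 to 4 tags per H3K27ac library, and just outside it the window 105862 bp upstream held 0 to 18.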

How the results depend on the processing

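Leaving out 1 library moved calls over all genes to between 8 and 18. The number of members called between genotypes was 0 per gene, per promoter, per window and in input under every alternative run. With TMM in place of library totals, member promoters called above input fell from 27 of 27 to 8 of 28 in wild type. In knockout they fell from 28 of 28 to 7 of 30. Over all genes the calls fell from 7618 of 7700 to 1160 of 8936 and from 7869 of 7920 to 1309 of 9528. The cause was not tested. The calls over all genes numbered 25 in the main design, 38 with DESeq2, 48 without the filter, 61 with all 12 libraries in the fit and 15 with a replicate block; over promoters 1, 7, 8, 7 and 3; over windows 24, 68, 68, 52 and 21. Deviations of same-numbered libraries from their group means correlated weakly (r at most 0.0153). Between wild-type H3K27ac and input, same-numbered libraries gave r of 0.0153, 0.0073 and 0.01, where other numbers gave at most 0.0036. No other pair of groups did so at every number. Correlations this small cannot tell whether the numbers pair libraries. The replicate block left 0 members called and turned Kdm6a from -0.05 to 0.10 (log2 fold change per gene); windows within 50 kb gave 0.14 for Kdm6a, and dropping overlapping windows gave 0.19 for Egln2, 0.15 for Fto (from 0.59), 0.25 for Kdm2a (from 0.04), 0.21 for Kdm4b (from 0.04), 0.28 for Tet2 (from 0.17), 0.10 for Kdm3b (from 0.24) and 0.02 for Phf2 (from 0.08). Leaving out 1 library at a time, run for 24 of the 33 genes tested and for 5 promoters, turned the sign per gene for Kdm5a (-0.0288 to 0.071), Kdm2a (-0.0745 to 0.15), Asph (-0.00205 to 0.24), Egln2 (-0.13 to 0.0826), Kdm4a (-0.29 to 0.17), Kdm6a (-0.35 to 0.63), Tet3 (-0.11 to 0.33), Phf2 (-0.0084 to 0.16), Riox2 (-0.0482 to 0.51), Kdm4b (-0.15 to 0.31) and Kdm5c (-0.81 to 0.0719), and at promoters for Kdm6a (-0.26 to 0.59) and Kdm5c (-0.83 to 0.0805). Genes with few tags had wide intervals (Hif1an 0.17 to 1.96). A difference of differences over input, chosen after seeing the data, called 0 promoters.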
